A study of Homo sapiens with 12 samples.

Results

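The 35 genes described here encode the protein-folding machinery of the endoplasmic reticulum (ER) and the parts of the unfolded protein response. They were taken as a list of gene symbols, matched to gene identifiers, and all 35 were found among the 57820 genes counted in each library. All 35 also passed the filter on low counts in each comparison. By role they are 11 chaperones and co-chaperones of the HSP70 and HSP90 systems, 8 disulfide enzymes and lectin chaperones, 9 genes of ER-associated degradation, 5 stress sensors and their outputs, and 2 translocation genes.

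Proteins of the secretory pathway enter the ER unfolded, are bound by the HSP70 chaperone BiP and by lectin chaperones, and gain disulfide bonds from protein disulfide isomerases. Chains that fail to fold are moved back to the cytosol and degraded, a route called ER-associated degradation (ERAD). When unfolded chains build up, the membrane sensors ATF6, IRE1 and PERK start the unfolded protein response, which raises chaperone and ERAD genes through the factors ATF6 and XBP1 and slows translation through PERK, which acts on the initiation factor eIF2 alpha. The PERK branch also turns on the transcription factors ATF4 and CHOP. Secretory epithelium, the tissue from which luminal breast cancers arise, makes heavy use of this machinery.

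The libraries came from T47D-MTVL cells, a T47D luminal breast cancer line that carries 1 copy of a luciferase reporter under the MMTV promoter, grown in charcoal-treated serum with no R5020 (a progestin). Poly(A) RNA was sequenced from cells given a control siRNA (siCtrl) or an siRNA against PADI2 (siPADI2), an enzyme that converts arginine in proteins to citrulline. It was also sequenced from cells transfected with RNA polymerase II (RNAP2) that carried an HA tag and alpha-amanitin resistance, wild type (WT) or R1810A, for 24 hours and then kept for 12 hours in 6 µg/ml alpha-amanitin, which blocks the endogenous polymerase. Chromatin-associated RNA was sequenced after siCtrl and siPADI2. Each of the 6 groups had 2 libraries, and the 3 comparisons were siPADI2 against siCtrl in poly(A) RNA, R1810A against WT in poly(A) RNA, and siPADI2 against siCtrl in chromatin RNA. WT and R1810A both carry the transfected polymerase and the toxin, which siCtrl and siPADI2 do not, so each comparison was read against its own control.

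Total counts ran from 44318629 to 132764704 for poly(A) RNA and from 2720080 to 7040541 for chromatin RNA, so small changes were harder to detect in chromatin RNA. PADI2 was at 23.96 and 22.6 CPM (counts scaled to library size) with siCtrl, 1.83 and 1.88 with siPADI2, 48.9 and 50.7 in WT and 3.13 and 2.35 in the libraries labelled R1810A for poly(A) RNA, and at 34.9 and 32.5 with siCtrl and 8.52 and 14.2 with siPADI2 for chromatin RNA. It was lower in all 3 comparisons, by 12.6-fold after siPADI2 in poly(A) RNA, 2.96-fold in chromatin RNA and 18.2-fold in the libraries labelled R1810A, which carry no label of a PADI2 siRNA. Every direction drawn from the libraries labelled R1810A carries that doubt. POLR2A, which encodes the largest RNAP2 subunit, was lower after siPADI2 (log2 fold change −0.53, SE 0.0903, edgeR adjusted p = 5.07e-06) and in the libraries labelled R1810A (−0.53, SE 0.0680, edgeR adjusted p = 3.03e-05) in poly(A) RNA. All 8 luminal epithelial markers checked were present in every group, and 11 markers of basal, mesenchymal, endothelial and immune cells summed to between 53.5 and 79.5 CPM in the poly(A) libraries, with KRT5 at 0 in both siCtrl, both siPADI2 and both WT libraries. In chromatin RNA these 11 markers summed to more, 317.4 to 364.5 CPM after siCtrl and 241.3 to 277.8 after siPADI2. The summed luminal markers themselves were lower, at 4767 to 5185 CPM after siPADI2 against 8676 to 9725 after siCtrl, and at 4952 to 5636 in the libraries labelled R1810A against 8635 to 9119 in WT. In chromatin RNA they summed to 983 to 1415 CPM after siPADI2 against 2186 to 2313 after siCtrl. Their part in the results below was not tested. In these bulk samples fewer cells of a type and less RNA per cell cannot be told apart.

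Among the promoters of these genes are the sequences through which ATF6 and XBP1 are known to act, so those letters are shown before the values. RefSeq windows of 300 bases around the start site (250 before it and 50 from it on, build GRCh38.p14) were found for 32 of the 35 genes, the others being PDIA3, DERL1 and DERL3. The ER stress element (ERSE, CCAAT and then CCACG with 9 bases of any kind between them, either strand) was in 7 of the 32 windows against 0.077% of all 35116 promoters. The related ERSE-II (ATTGG and then CCACG with 1 base of any kind between them, either strand) was in 3 against 0.054%, and the unfolded protein response element (UPRE, TGACGTGG, either strand) in 2 against 0.729%. The amino acid response core TTGCATCA, either strand, was in 1, HERPUD1, against 0.866%. Each line below gives 30 bases read in the direction of the gene, with the matched letters in capitals.
HSPA5 (ERSE, chr9:125241385-125241414, minus strand): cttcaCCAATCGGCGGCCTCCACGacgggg
HSP90B1 (ERSE, chr12:103930211-103930240, plus strand): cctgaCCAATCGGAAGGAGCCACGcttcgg
PDIA6 (ERSE, chr2:10812847-10812876, minus strand): ccggaCCAATGAGCCGCAGCCACGgcttgg
CANX (ERSE, chr5:179698773-179698802, plus strand): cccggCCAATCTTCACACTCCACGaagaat
CALR (ERSE on the opposite strand, chr19:12938379-12938408, plus strand): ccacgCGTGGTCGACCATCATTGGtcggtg
CRELD2 (ERSE on the opposite strand, chr22:49918549-49918578, plus strand): cctctCGTGGCGAACTCGGATTGGgccata
ERO1LB (ERSE on the opposite strand, chr1:236282177-236282206, minus strand): gcccgCGTGGTCCCGCCTCATTGGccgccg
HYOU1 (ERSE-II on the opposite strand, chr11:119057264-119057293, minus strand): ggcctgggaCGTGGTCCAATgagtacgcgc
SDF2L1 (ERSE-II on the opposite strand, chr22:21642105-21642134, plus strand): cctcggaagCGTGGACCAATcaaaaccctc
HERPUD1 (ERSE-II, chr16:56932016-56932045, plus strand): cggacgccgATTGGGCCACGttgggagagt
DNAJC10 (UPRE on the opposite strand, chr2:182716121-182716150, plus strand): cgcgcacaccgCCACGTCAacctaaaccta
HSP90B1 held another ERSE, and HYOU1 held another ERSE-II that overlaps its UPRE. In all, 11 genes held 1 or more of the 3 elements. A match is a description of these letters only.

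The 35 genes lay mostly in the upper part of the genes tested by level in siCtrl poly(A) RNA. MANF, ranked 18 of the 35, stood at the 87.7th percentile. The part of this high level in the counts of calls below was not tested. Per kilobase of exon, HSPA5 (443 CPM per kb) and CALR (430) stood at the 99.7th percentile of the genes tested, followed by P4HB (278), CANX (267), HSP90B1 (262) and PDIA3 (201). The 3 sensors were far lower, with ATF6 at 13.4, EIF2AK3 at 10.5 and ERN1 at 4.4 CPM per kb. DNAJC12 (1.31, 40.0th percentile) and DERL3 (0.0603, 7.0th percentile) were the lowest, and the only members below the middle of the genes tested. Together the 35 genes made up 1.18% and 1.20% of the scaled siCtrl libraries and 1.01% and 0.993% of the siPADI2 libraries. They made up 1.36% and 1.41% of the WT libraries against 1.05% and 1.14% of those labelled R1810A. In both pairs the groups did not overlap, and the siPADI2 and R1810A libraries were the lower ones. In chromatin RNA the shares were 0.258% and 0.225% after siCtrl and 0.216% and 0.171% after siPADI2, again lower without overlap.

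After siPADI2 in poly(A) RNA, 17 of the 35 genes fell and 8 rose, at an edgeR adjusted p under 0.05. Of all 18720 genes tested, 27.9% fell and 28.8% rose. The median log2 fold change of the 35 was −0.17, against 0.005 over all genes. Past a 2-fold change, 6 fell and 1 rose, where 16.8% of all genes tested passed in either direction. Disulfide, lectin and ERAD genes held 11 of the 17 falls, and the sensors and outputs held 4 of the 8 rises. The balance depended on the scaling: with total counts as library sizes the median of all genes moved to 0.188, and 11 of the 35 fell and 12 rose. Rises then made up 52.2% of the calls among the 35 (32.0% with TMM) and 67.0% among all genes (50.8% with TMM). The median of the 35 stayed below that of all genes, at 0.012.

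In the libraries labelled R1810A, 20 genes were lower and 9 higher than in WT, where 24.3% and 22.6% of the 19202 genes tested were lower and higher. The median of the 35 was −0.27, against −0.02 for all genes. Past 2-fold, 4 were lower and 1 higher, against 10.6% of all genes in either direction. In chromatin RNA siPADI2 gave 12 falls and 3 rises among the 35, where 20.1% of 33879 genes fell and 12.2% rose. Past 2-fold there were 5 falls and 1 rise, against 20.9% of all genes in either direction. The chromatin median was −0.34 for the 35 and 0.03 for all genes. Rises were 20.0% of the chromatin calls among the 35 and 37.8% among all genes, and with DESeq2 these shares were 25% and 14.2%. The plot of fold changes by role shows all 35 genes.

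**Figure D1:**
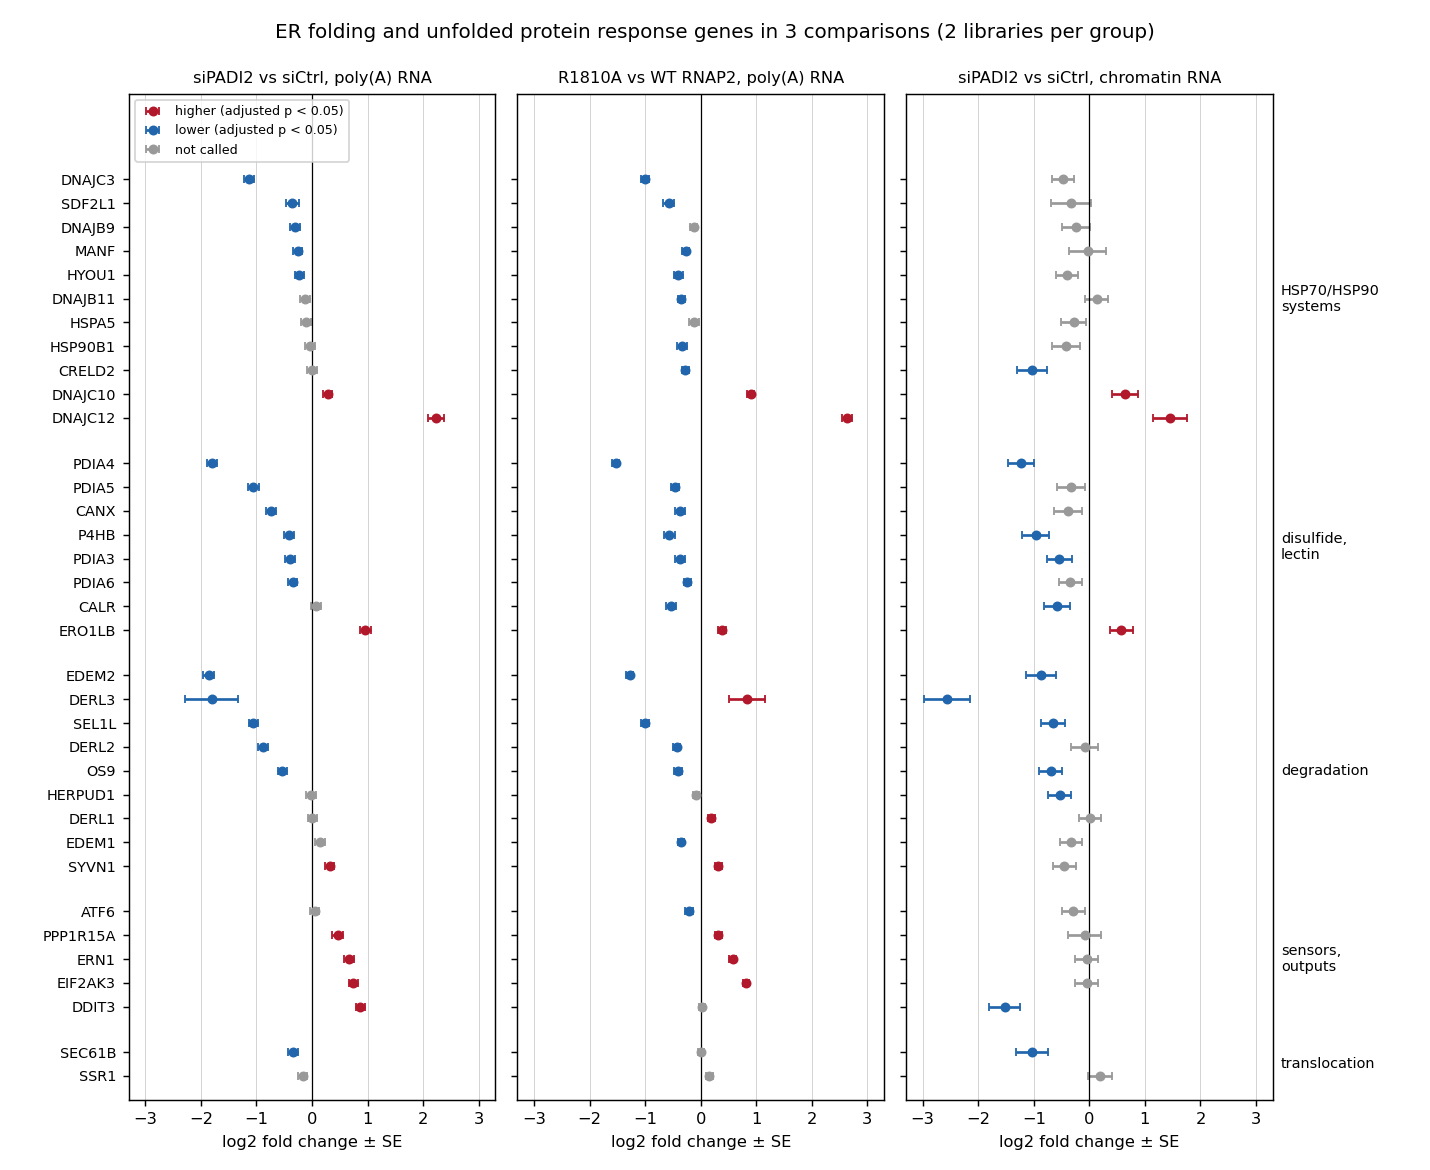
Log2 fold change (x axis) with its standard error for each of the 35 genes (rows, grouped by role) in the 3 comparisons, from 2 libraries per group. Red points are called higher, blue points lower (edgeR adjusted p under 0.05) and grey points not called. PDIA4, EDEM2 and SEL1L are blue and DNAJC12, DNAJC10 and ERO1LB red in all 3 panels, and HSPA5 and SSR1 are grey in all 3.

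Among the chaperones, BiP was not called in any comparison. HSPA5 (ENSG00000044574.7, hg19 chr9:127997132-128003609, minus strand), which encodes BiP, the HSP70 of the ER lumen, was at 1696 and 1763 CPM after siCtrl and 1620 and 1606 after siPADI2 in the poly(A) fraction (log2 fold change −0.10, SE 0.0887, edgeR adjusted p = 0.343). In WT it was at 1610 and 1681 CPM and in the libraries labelled R1810A at 1427 and 1602 (log2 fold change −0.12, SE 0.0948, edgeR adjusted p = 0.329). In chromatin RNA the values were 167 and 129 CPM after siCtrl and 139.8 and 104 after siPADI2, and the groups overlapped (log2 fold change −0.28, SE 0.231, edgeR adjusted p = 0.355). In both poly(A) comparisons the siPADI2 and R1810A libraries were the lower ones without overlap, but none of the 3 differences passed the main test. With a replicate block, which pairs libraries by the numbers in their titles, HSPA5 was called lower for R1810A (−0.12, edgeR adjusted p = 0.00766).

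HSP90B1 (ENSG00000166598.8, hg19 chr12:104323885-104347423, plus strand) encodes GRP94, the HSP90 of the ER. It was at 1173 and 1284 CPM after siCtrl and 1202 and 1207 after siPADI2, with overlapping groups (log2 fold change −0.03, SE 0.0887, edgeR adjusted p = 0.804). It was lower in the libraries labelled R1810A, at 1325 and 1426 CPM against 1739 and 1717 in WT (log2 fold change −0.33, SE 0.0903, edgeR adjusted p = 0.00877). That call was lost when WT replicate 1 was left out, with an edgeR adjusted p of 0.141. In chromatin RNA its values overlapped, at 243 and 177 CPM after siCtrl and 192 and 122 after siPADI2 (log2 fold change −0.42, SE 0.245, edgeR adjusted p = 0.177). With GC correction HSP90B1 was called lower there (−0.81, edgeR adjusted p = 0.0267). The test of the difference between the siPADI2 and R1810A effects was not passed (0.28, SE 0.107, edgeR adjusted p = 0.0734). It was passed with total counts as library sizes (0.42, edgeR adjusted p = 0.0103), DESeq2 (0.27, adjusted p = 0.0492), no filter on low counts (0.36, edgeR adjusted p = 0.028) and a replicate block (0.28, edgeR adjusted p = 0.00965).

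The co-chaperones with a J domain, which bring clients to HSP70 and start its ATP cycle, went in both directions. DNAJC3 (ENSG00000102580.10, hg19 chr13:96329393-96447243, plus strand) encodes p58IPK, a lumenal partner of BiP. It fell from 126 and 132 CPM to 58.2 and 59.8 after siPADI2 (log2 fold change −1.13, SE 0.0827, edgeR adjusted p = 7.04e-15). In the libraries labelled R1810A it was at 74.2 and 81.6 CPM against 152 and 161 in WT (log2 fold change −1.005, SE 0.0662, edgeR adjusted p = 7.38e-08), again with no overlap. In chromatin RNA, at 59.2 and 45.9 CPM after siCtrl and 44.4 and 31.2 after siPADI2, DNAJC3 did not pass (log2 fold change −0.47, SE 0.204, edgeR adjusted p = 0.0580). With GC correction it was called lower there (−0.88, edgeR adjusted p = 0.00279).

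DNAJC12 (ENSG00000108176.10, hg19 chr10:69556427-69597924, minus strand) had the largest fold change of the 35 in both poly(A) comparisons. It encodes a cytosolic J-domain protein that assists the aromatic amino acid hydroxylases, and so is not a resident of the ER lumen. Its poly(A) level was 2.28 and 3.27 CPM after siCtrl and 14.4 and 12.7 after siPADI2, a 4.69-fold rise (log2 fold change 2.23, SE 0.138, edgeR adjusted p = 1.80e-15). It was 3.29 and 3.36 CPM in WT and 19.97 and 21.3 in the libraries labelled R1810A, 6.22-fold higher (log2 fold change 2.64, SE 0.0837, edgeR adjusted p = 1.71e-10). Chromatin RNA showed a rise from 6.32 and 6.48 to 18.5 and 16.6 CPM (log2 fold change 1.45, SE 0.302, edgeR adjusted p = 2.70e-05), on 39 to 52 counts per library. The groups stood apart in all 3 comparisons.

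DNAJC10, which encodes the lumenal disulfide reductase ERdj5 and holds the UPRE printed above, also rose in all 3 comparisons. Its level was 286 and 310.1 CPM after siCtrl and 379 and 346 after siPADI2 (log2 fold change 0.28, SE 0.0857, edgeR adjusted p = 0.00514), a call lost with GC correction (edgeR adjusted p = 0.116). It was 248 and 256 CPM in WT and 454 and 486 in the libraries labelled R1810A (log2 fold change 0.90, SE 0.0693, edgeR adjusted p = 2.98e-07). The rise was larger in the latter comparison, by a test of the difference of the effects (−0.64, SE 0.103, edgeR adjusted p = 0.000405). Its chromatin level was 197 and 175 CPM after siPADI2 and 138 and 100.3 after siCtrl (log2 fold change 0.64, SE 0.236, edgeR adjusted p = 0.0254), and that call too was lost with GC correction (edgeR adjusted p = 0.552).

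The other chaperone genes moved by less than 2-fold in poly(A) RNA. HYOU1, the HSP110-type exchange factor of BiP, SDF2L1, a partner of BiP and its J proteins, and MANF, an ER-stress-induced BiP-binding factor, were lower in both poly(A) comparisons, with log2 fold changes of −0.23, −0.36 and −0.26 after siPADI2 and −0.40, −0.57 and −0.27 for R1810A. DNAJB9 (ERdj4) was called lower after siPADI2 (−0.30) and not for R1810A (−0.12), and the difference between these effects was not passed (−0.20, SE 0.112, edgeR adjusted p = 0.203). With a replicate block DNAJB9 was called lower for R1810A too (edgeR adjusted p = 0.0112). The siPADI2 calls of HYOU1, SDF2L1, MANF and DNAJB9 were all lost with total counts as library sizes. DNAJB11 (ERdj3) was lower in the libraries labelled R1810A (−0.35) and was not called after siPADI2 (−0.13).

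CRELD2, an ER-stress-induced gene with an ERSE, was called after siPADI2 in chromatin RNA and not in poly(A) RNA. Its poly(A) level was 22.98 and 21.4 CPM after siCtrl and 22.6 and 21.6 after siPADI2, with overlapping groups (log2 fold change −0.001, SE 0.0977, edgeR adjusted p = 0.997). In chromatin RNA it fell from 19.3 and 21.4 to 11 and 8.86 CPM (log2 fold change −1.03, SE 0.271, edgeR adjusted p = 0.00120), on 31 and 25 counts after siPADI2. That fall was not called with GC correction (log2 fold change −0.52, edgeR adjusted p = 0.148) nor with DESeq2 (adjusted p = 0.0577). It was modestly lower in the libraries labelled R1810A, at 21.99 and 21.8 CPM against 26.9 and 26.2 in WT (log2 fold change −0.28, SE 0.0641, edgeR adjusted p = 0.00290).

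Disulfide enzymes and lectin chaperones were the role with the highest share of members lower in poly(A) RNA, 6 of 8 after siPADI2 and 7 of 8 in the libraries labelled R1810A, with 1 higher in each. In chromatin RNA 4 of the 8 were lower and 1 higher, beside 5 of the 9 ERAD genes lower and none higher. PDIA4 (ENSG00000155660.6, hg19 chr7:148700154-148725733, minus strand) led them. It encodes ERp72, a protein disulfide isomerase of the ER lumen. Its level fell 3.47-fold after siPADI2, from 169.7 and 162 CPM to 45.95 and 49.3 (log2 fold change −1.80, SE 0.0849, edgeR adjusted p = 1.20e-20). In the libraries labelled R1810A it was at 61.3 and 69.8 CPM against 186 and 193 in WT, 2.89-fold lower (log2 fold change −1.53, SE 0.0705, edgeR adjusted p = 4.70e-09). Chromatin RNA showed a 2.34-fold fall, from 36.6 and 34.01 to 18.1 and 12.1 CPM (log2 fold change −1.23, SE 0.232, edgeR adjusted p = 3.11e-06). The groups stood well apart in all 3, and the call held in every alternative run.

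The other isomerases fell by less. PDIA5 was at 26.03 and 26.04 CPM after siCtrl and 12.3 and 12.8 after siPADI2 (log2 fold change −1.05, SE 0.100, edgeR adjusted p = 1.04e-11), and its log2 fold change was −0.46 in the libraries labelled R1810A. The siPADI2 effect was the larger one (−0.62, SE 0.105, edgeR adjusted p = 0.000603). PDIA3 (ERp57, the partner of the lectin chaperones), P4HB (the founding isomerase PDI) and PDIA6 (P5, with an ERSE) had siPADI2 log2 fold changes of −0.39, −0.42 and −0.35 in poly(A) RNA, and were −0.37, −0.56 and −0.24 for R1810A, all called lower. In chromatin RNA, P4HB (−0.97) and PDIA3 (−0.54) were called lower and PDIA6 (−0.34) was not. With GC correction P4HB fell short in chromatin RNA (log2 fold change −0.14, edgeR adjusted p = 0.720) and PDIA6 was called lower (−0.60, edgeR adjusted p = 0.0311). PDIA3 lost its chromatin call with total counts as library sizes (−0.41, edgeR adjusted p = 0.11), DESeq2 (−0.58, adjusted p = 0.0852) and a joint fit with the poly(A) libraries (−0.54, edgeR adjusted p = 0.17). Without siPADI2 replicate 2 the PDIA3 chromatin log2 fold change was −0.41.

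The lectin pair split after siPADI2 in poly(A) RNA. CANX encodes calnexin, the membrane-bound lectin chaperone for glycoproteins. Its level fell from 1604 and 1723 CPM to 982 and 1016 after siPADI2 (log2 fold change −0.73, SE 0.0891, edgeR adjusted p = 4.14e-09). CALR encodes calreticulin, its lumenal counterpart, and was not called, at 1219 and 1116 CPM after siCtrl and 1275 and 1181 after siPADI2, with overlapping groups (log2 fold change 0.07, SE 0.0895, edgeR adjusted p = 0.505). In the libraries labelled R1810A both were lower, CANX at 1116 and 1210 CPM against 1494 and 1527 and CALR at 1173 and 1291 against 1734 and 1830. The effects differed between the comparisons in opposite directions, with a difference (siPADI2 minus R1810A) of 0.58, SE 0.116, edgeR adjusted p = 0.00199 for CALR and −0.38, SE 0.107, edgeR adjusted p = 0.0160 for CANX. With total counts as library sizes CALR was called higher after siPADI2 (log2 fold change 0.26, edgeR adjusted p = 0.00943). In chromatin RNA CALR was lower, at 142 and 89.6 CPM against 184 and 161 (log2 fold change −0.57, SE 0.235, edgeR adjusted p = 0.0455), and CANX was not called (log2 fold change −0.39, SE 0.251, edgeR adjusted p = 0.229). With GC correction CALR was not called there (−0.13, edgeR adjusted p = 0.747) and CANX was called lower (−0.77, edgeR adjusted p = 0.0309).

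ERO1LB (now named ERO1B), an oxidase that recharges the isomerases, went against its partners. It rose from 21.97 and 23.97 CPM to 43.7 and 45.97 after siPADI2 (log2 fold change 0.96, SE 0.0934, edgeR adjusted p = 1.90e-11). It was 37.4 and 34.9 CPM in the libraries labelled R1810A against 28.98 and 26.6 in WT (log2 fold change 0.38, SE 0.0685, edgeR adjusted p = 0.000492), a smaller rise by the test of the difference (0.55, SE 0.109, edgeR adjusted p = 0.00182). In chromatin RNA it rose from 43.6 and 39.6 to 66.01 and 58.1 CPM (log2 fold change 0.58, SE 0.201, edgeR adjusted p = 0.0175), a call lost with DESeq2 (adjusted p = 0.144) and with GC correction (edgeR adjusted p = 0.634).

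**Figure D2:**
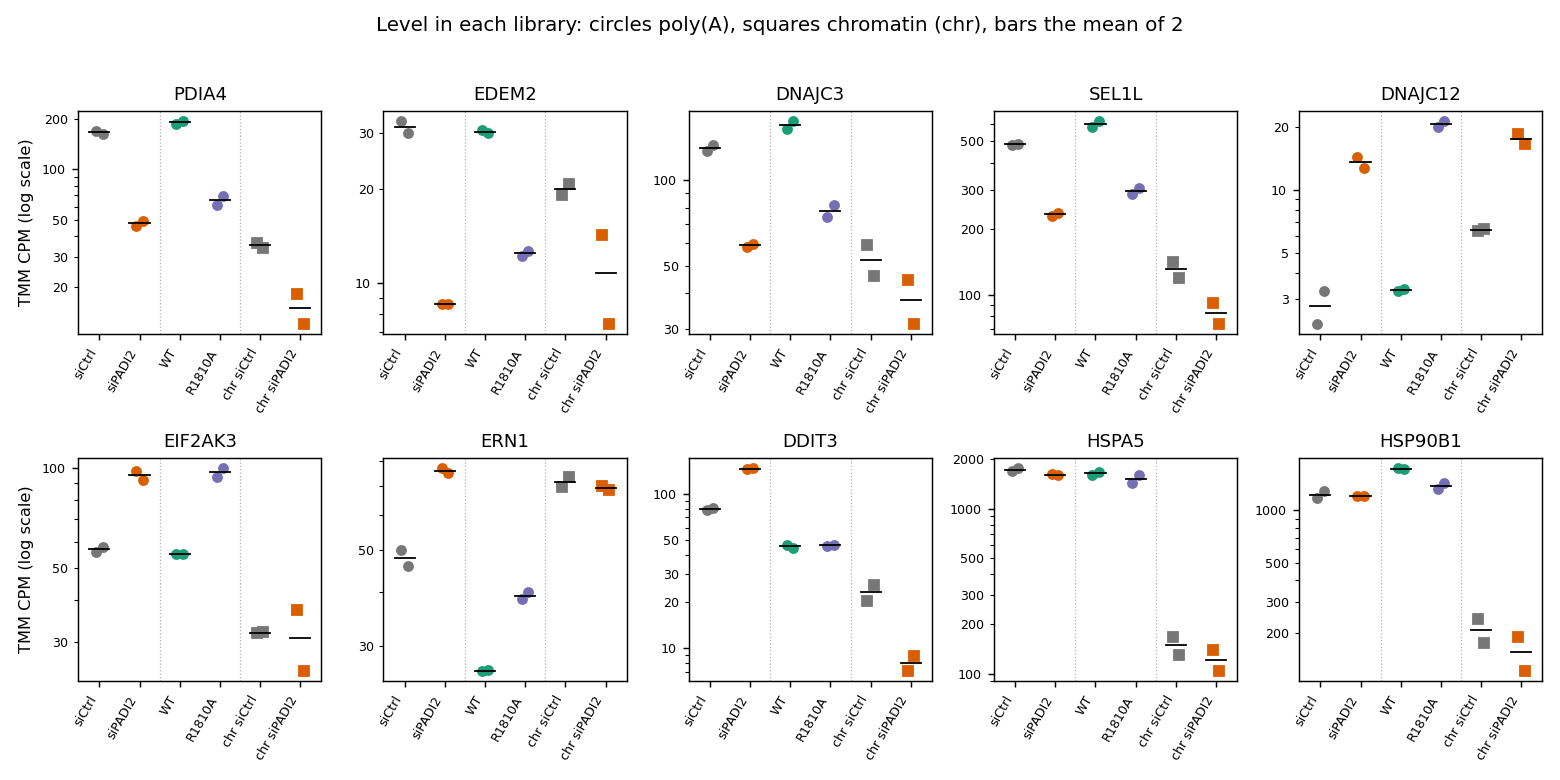
Level of 10 genes in each library (TMM-scaled CPM, log axis), poly(A) libraries as circles and chromatin libraries (chr) as squares, with the mean of the 2 libraries of a group as a bar. PDIA4, EDEM2, DNAJC3 and SEL1L are lower and DNAJC12, EIF2AK3 and ERN1 higher in both siPADI2 and R1810A poly(A) libraries, and DDIT3 is higher after siPADI2 in poly(A) RNA (144.2 and 145.9 CPM) and lower in chromatin RNA (7.10 and 8.86 CPM).

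ERAD genes fell in 5 of 9 cases after siPADI2 in poly(A) RNA, with 1 rise, were lower in 5 and higher in 3 in the libraries labelled R1810A, and fell in 5, with no rise, in chromatin RNA. EDEM2 (ENSG00000088298.8, hg19 chr20:33703167-33865928, minus strand) encodes a mannosidase-family protein that starts the mannose trimming which marks misfolded glycoproteins. Its level fell 3.63-fold, from 32.7 and 30.04 CPM to 8.62 and 8.62, after siPADI2 (log2 fold change −1.86, SE 0.103, edgeR adjusted p = 1.59e-18). It was 12.2 and 12.7 CPM against 30.7 and 29.9 in the libraries labelled R1810A and WT (log2 fold change −1.28, SE 0.0676, edgeR adjusted p = 1.02e-08). The fall was deeper after siPADI2 (−0.61, SE 0.106, edgeR adjusted p = 0.000715). The chromatin level went from 19.1 and 20.6 to 14.2 and 7.44 CPM (log2 fold change −0.88, SE 0.268, edgeR adjusted p = 0.00592), with 1 siPADI2 library nearly 2-fold above the other. The chromatin call was lost with total counts as library sizes (−0.77, edgeR adjusted p = 0.059), DESeq2 (−0.92, adjusted p = 0.14) and GC correction (−0.36, edgeR adjusted p = 0.363). Without siPADI2 replicate 2 the chromatin log2 fold change was −0.48. In the annotation used, 20.9% of its exonic bases are shared with 2 other genes on the same strand, and reads there were left uncounted by the default setting.

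SEL1L (ENSG00000071537.9, hg19 chr14:81937893-82000205, minus strand) and SYVN1 encode the adaptor and the ubiquitin ligase (HRD1) of the main ERAD complex. They moved in opposite directions in poly(A) RNA but not in chromatin RNA. SEL1L fell from 482 and 487 CPM to 229 and 236 after siPADI2 (log2 fold change −1.06, SE 0.0846, edgeR adjusted p = 9.31e-14). It was 288 and 308 CPM against 579 and 618 in the libraries labelled R1810A and WT (log2 fold change −1.01, SE 0.0736, edgeR adjusted p = 1.81e-07). Chromatin RNA showed a fall from 142 and 119 to 91.9 and 73.7 CPM (log2 fold change −0.66, SE 0.223, edgeR adjusted p = 0.0145), a call lost without siPADI2 replicate 2 (edgeR adjusted p = 0.250). The groups did not overlap in any of the 3 comparisons.

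SYVN1 was higher in both poly(A) comparisons, at 139 and 138 CPM against 115 and 107 after siPADI2 (log2 fold change 0.32, SE 0.0820, edgeR adjusted p = 0.000975) and 118 and 116 against 97.2 and 91.2 for R1810A (log2 fold change 0.32, SE 0.0599, edgeR adjusted p = 0.000755). In chromatin RNA SYVN1 was at 32.3 and 26.6 CPM after siPADI2 against 39.4 and 41.2 after siCtrl, without overlap. This difference was not called (−0.45, SE 0.208, edgeR adjusted p = 0.0793). OS9, a lectin that hands glycoproteins to this complex, was lower in all 3 comparisons, with log2 fold changes of −0.53 and −0.41 in poly(A) RNA and −0.70 in chromatin RNA. The chromatin call of OS9 was lost with GC correction (edgeR adjusted p = 0.0936).

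Derlins are membrane proteins of the channel that returns chains to the cytosol. DERL2 fell after siPADI2 (log2 fold change −0.89, SE 0.0897, edgeR adjusted p = 5.45e-11) and was lower in the libraries labelled R1810A (log2 fold change −0.43, SE 0.0627, edgeR adjusted p = 8.02e-05), while DERL1 was at 0.01 (not called) and 0.19 (higher). DERL3 (ENSG00000099958.10, hg19 chr22:24176690-24181315, minus strand) was the only one of the 35 called in opposite directions in the poly(A) comparisons, where 3.05% of the 18260 genes tested in both were. It was barely measured there, at 0.168 and 0.290 CPM after siCtrl and 0.0926 and 0.0511 after siPADI2, on 7 to 36 counts per library (log2 fold change −1.81, SE 0.473, edgeR adjusted p = 0.00129). The call was lost with DESeq2 (adjusted p = 0.0953) and without siCtrl replicate 2 (edgeR adjusted p = 0.244). In WT it was 0.192 and 0.155 CPM and in the libraries labelled R1810A 0.345 and 0.277 (log2 fold change 0.83, SE 0.318, edgeR adjusted p = 0.0458), a call lost without any 1 of the 4 libraries, with edgeR adjusted p from 0.0699 to 0.22. In chromatin RNA the values were far higher, 14.8 and 12.8 CPM after siCtrl (91 and 87 counts) and 2.84 and 1.77 after siPADI2 (8 and 5 counts), a 5.92-fold fall that held in every alternative run (log2 fold change −2.56, SE 0.413, edgeR adjusted p = 2.83e-08).

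HERPUD1, an ER-stress-induced ERAD scaffold whose promoter holds an ERSE-II and the TTGCATCA core, was not called in poly(A) RNA (−0.02 after siPADI2 and −0.08 for R1810A). It fell in chromatin RNA, from 41.5 and 35.8 to 28.04 and 25.1 CPM (log2 fold change −0.54, SE 0.211, edgeR adjusted p = 0.0367), a call lost with DESeq2 (adjusted p = 0.188). EDEM1, a relative of EDEM2, was lower in the libraries labelled R1810A (−0.35) and not called after siPADI2 (0.14), and these effects differed (0.47, SE 0.0931, edgeR adjusted p = 0.00192).

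The sensors and outputs were the one role in which calls after siPADI2 in poly(A) RNA were all rises, 4 of 5. ERN1 (ENSG00000178607.11, hg19 chr17:62116502-62208179, minus strand) encodes IRE1, the kinase and RNase that splices XBP1 mRNA. It rose from 49.9 and 45.8 CPM to 76.9 and 74.8 after siPADI2 (log2 fold change 0.67, SE 0.0850, edgeR adjusted p = 1.30e-08). In the libraries labelled R1810A it was 38.5 and 39.9 CPM against 26.3 and 26.4 in WT (log2 fold change 0.57, SE 0.0616, edgeR adjusted p = 6.06e-06). In chromatin RNA it was 69.5 and 73.3 CPM after siCtrl and 69.9 and 68.4 after siPADI2, with overlapping groups (log2 fold change −0.05, SE 0.208, edgeR adjusted p = 0.886). The poly(A) rises thus had no counterpart called in chromatin RNA, although the test of the difference between fractions was not passed (−0.92, SE 0.373, edgeR adjusted p = 0.118). It was passed with total counts as library sizes (−0.79, edgeR adjusted p = 0.00190) and with DESeq2 (−0.54, adjusted p = 0.00133).

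EIF2AK3 (ENSG00000172071.7, hg19 chr2:88856259-88927094, minus strand) encodes PERK, the kinase that slows translation under ER stress. Its poly(A) level rose from 55.9 and 57.7 CPM to 98.1 and 92.2 after siPADI2 (log2 fold change 0.74, SE 0.0833, edgeR adjusted p = 6.50e-10). It was 94.01 and 99.8 CPM against 55.01 and 55.2 in the libraries labelled R1810A and WT (log2 fold change 0.81, SE 0.0587, edgeR adjusted p = 1.66e-07). In chromatin RNA the groups overlapped, at 31.9 and 31.9 CPM and 37.3 and 24.4 (log2 fold change −0.05, SE 0.209, edgeR adjusted p = 0.879). The difference between the fractions was not passed (−0.99, SE 0.385, edgeR adjusted p = 0.0981), and was passed with total counts as library sizes (−0.87, edgeR adjusted p = 0.00185), DESeq2 (−0.62, adjusted p = 0.00468) and GC correction (−1.23, edgeR adjusted p = 0.000459).

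ATF6 (ENSG00000118217.5, hg19 chr1:161736084-161933860, plus strand), the third sensor, encodes a membrane-bound transcription factor released by cleavage. It was 101 and 111 CPM after siCtrl and 111 and 108 after siPADI2, with overlapping groups (log2 fold change 0.05, SE 0.0827, edgeR adjusted p = 0.621). It was slightly lower in the libraries labelled R1810A, at 130.4 and 144 CPM against 156 and 162 (log2 fold change −0.21, SE 0.0659, edgeR adjusted p = 0.0192). That call was lost with DESeq2 (adjusted p = 0.0661) and without either WT library (edgeR adjusted p = 0.0699 and 0.0708). The chromatin values were 85.3 and 69.2 CPM (siCtrl) and 69.9 and 56.3 (siPADI2), with overlapping groups (log2 fold change −0.29, SE 0.209, edgeR adjusted p = 0.287). With GC correction ATF6 was called lower there (−0.68, edgeR adjusted p = 0.0177).

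DDIT3 (ENSG00000175197.6, hg19 chr12:57910371-57914300, minus strand) encodes CHOP, the transcription factor induced late in the PERK branch. In poly(A) RNA it rose 1.83-fold after siPADI2, from 77.96 and 80.6 CPM to 144 and 146 (log2 fold change 0.87, SE 0.0821, edgeR adjusted p = 8.46e-12). It was not called in the libraries labelled R1810A, at 46.04 and 46.5 CPM against 46.8 and 44.3 in WT, with overlapping groups (log2 fold change 0.02, SE 0.0596, edgeR adjusted p = 0.782). The difference between these effects was passed (0.82, SE 0.0850, edgeR adjusted p = 9.32e-06). Its chromatin level fell 2.87-fold, from 20.3 and 25.6 CPM (125 and 174 counts) to 7.10 and 8.86 (20 and 25 counts) (log2 fold change −1.52, SE 0.278, edgeR adjusted p = 1.34e-06). DDIT3 was the only one of the 35 called in opposite directions after siPADI2 in the 2 fractions, where 7.12% of the 17438 genes tested in both were.

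PPP1R15A, which encodes GADD34, the phosphatase subunit that ends the translational block, was higher in both poly(A) comparisons. It was 29.6 and 26.5 CPM against 20.96 and 19.8 after siPADI2 (log2 fold change 0.47, SE 0.0981, edgeR adjusted p = 0.000100) and 21.8 and 23.1 against 17.96 and 17.99 for R1810A (log2 fold change 0.32, SE 0.0679, edgeR adjusted p = 0.00166). In chromatin RNA it was not called (−0.08).

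Of the translocation genes, SEC61B was called after siPADI2 and SSR1 was not. SEC61B, a subunit of the channel through which new chains enter the ER, fell after siPADI2 from 55.4 and 56.1 CPM to 45.2 and 42.5 (log2 fold change −0.34, SE 0.0860, edgeR adjusted p = 0.000755), and was 41.6 and 40.3 in WT and 39.8 and 42.4 in the libraries labelled R1810A (log2 fold change 0.01, SE 0.0619, edgeR adjusted p = 0.947). In chromatin RNA it fell from 15.9 and 18.3 to 8.52 and 8.15 CPM (log2 fold change −1.03, SE 0.293, edgeR adjusted p = 0.00284), a call lost with DESeq2 (adjusted p = 0.0822). SSR1, a subunit of the translocon-associated complex, was not called in any of the 3 comparisons (−0.17, 0.15 and 0.20). It was called lower after siPADI2 with GC correction (−0.26, edgeR adjusted p = 0.00249) and higher for R1810A with total counts as library sizes (0.215, edgeR adjusted p = 0.0268). A replicate block gave both calls, lower after siPADI2 (−0.17, edgeR adjusted p = 0.0345) and higher for R1810A (0.15, edgeR adjusted p = 0.000157).

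Side by side, 14 of the 35 genes were lower in both poly(A) comparisons, where 16.2% of the 18260 genes tested in both were. They were PDIA3, PDIA4, PDIA5, PDIA6, P4HB, CANX, DNAJC3, HYOU1, SDF2L1, MANF, SEL1L, EDEM2, DERL2 and OS9. Another 7, DNAJC10, DNAJC12, SYVN1, ERO1LB, ERN1, EIF2AK3 and PPP1R15A, were higher in both, against 15.2% of genes. The 2 comparisons share no library. Across the 35 genes their log2 fold changes had a Pearson r of 0.739 and a Spearman rho of 0.708, and r was 0.618 without DNAJC12. Over all 18260 genes r was 0.653, and genes are not independent replicates.

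The test of the difference between the siPADI2 and R1810A effects was passed by 13 of the 35. In 9, the siPADI2 effect was the more negative one (14.3% of all 19884 genes tested), namely PDIA4, PDIA5, CANX, DNAJC10, EDEM2, DERL2, DERL3, SEC61B and SSR1. In 4, CALR, EDEM1, ERO1LB and DDIT3, it was the more positive one (11.8%). These 4 held in every alternative run, whereas PDIA4, CANX, DERL3, SEC61B and SSR1 did not. With total counts as library sizes the split was 5 more negative and 9 more positive.

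**Figure D3:**
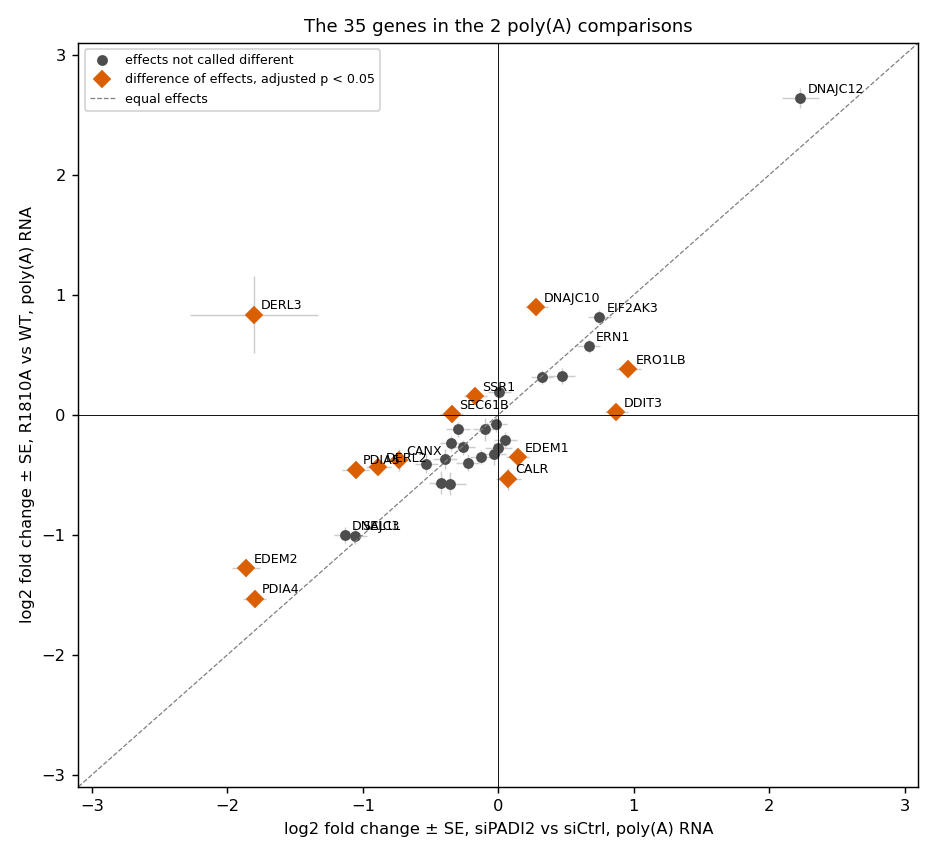
Log2 fold change of each of the 35 genes after siPADI2 (x axis) and in the libraries labelled R1810A (y axis), both in poly(A) RNA, with standard errors from 2 libraries per group. Orange diamonds mark the 13 genes whose effects differ (edgeR adjusted p under 0.05) and the dashed line marks equal effects. Most genes lie in the lower left and upper right parts of the plot, and DERL3 and DDIT3 lie farthest from the line.

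Between the fractions, 11 of the 35 genes were called in the same direction after siPADI2 in poly(A) and chromatin RNA, where 12.3% of the 17438 genes tested in both were. The 8 lower in both were PDIA3, PDIA4, P4HB, SEL1L, EDEM2, DERL3, OS9 and SEC61B, and the 3 higher in both were DNAJC10, DNAJC12 and ERO1LB. Of these 11, only PDIA4, DERL3 and DNAJC12 kept the chromatin call in every alternative run. Across the 35 genes the log2 fold changes in the 2 fractions had an r of 0.628 and a rho of 0.498, and r was 0.505 without DNAJC12. Over all 17438 genes, many of them at lower levels than most of the 35, r was 0.174. The part of level in this contrast was not tested. The fractions differ in kit and in depth.

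The test of the difference between the fractions was passed by 2 of the 35, both with the more negative effect in chromatin RNA, where 6.34% of the 44615 genes tested were. None of the 35 had the more positive effect in chromatin RNA, where 1.71% of genes did. DDIT3 differed most (−2.59, SE 0.429, edgeR adjusted p = 2.58e-07), and held in every alternative run. CRELD2 (−1.24, SE 0.415, edgeR adjusted p = 0.0383) did not hold with GC correction (log2 difference −0.34, edgeR adjusted p = 0.731). These counts were higher in other fits, with 7 more negative and 3 more positive with total counts as library sizes, 7 and 4 with GC correction, and 5 and 7 with DESeq2. DESeq2 differs in its test and filter as well as its scaling, and with it the median of all genes moved from −0.16 to 0.54. With GC correction SDF2L1 turned from −0.18 to 1.15 and was called (edgeR adjusted p = 0.0265). Without siCtrl poly(A) replicate 2 the count was 15 more negative and 0 more positive.

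**Figure D4:**
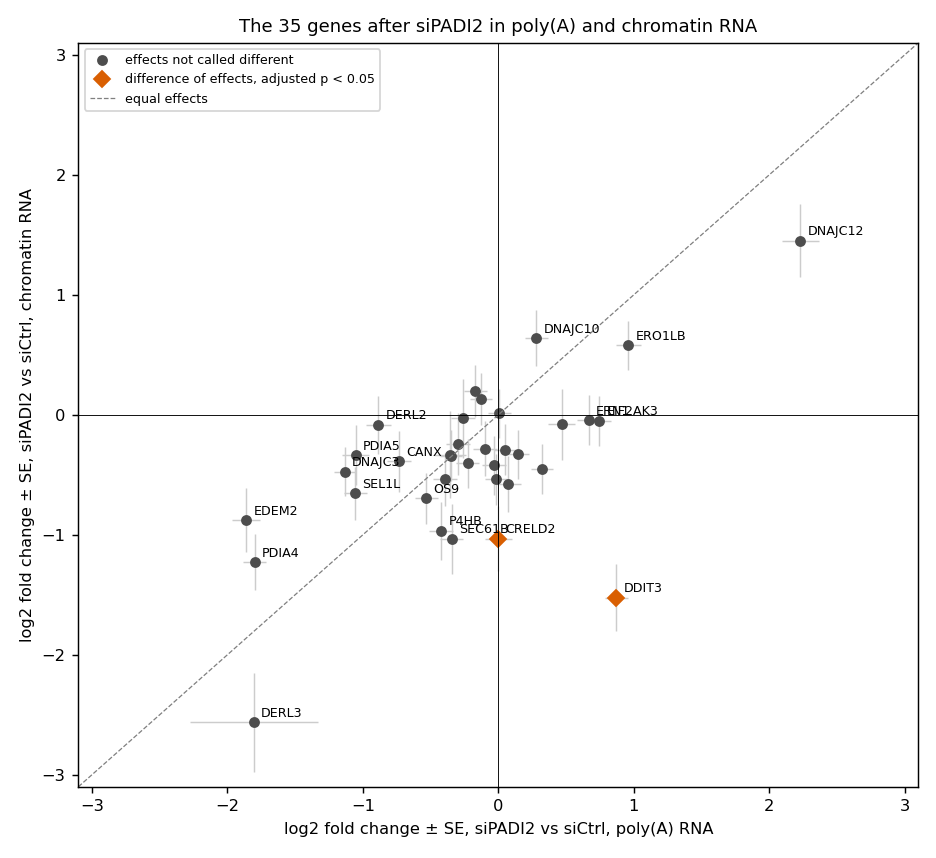
Log2 fold change of each of the 35 genes after siPADI2 in poly(A) RNA (x axis) and in chromatin RNA (y axis), with standard errors from 2 libraries per group. Orange diamonds mark the 2 genes whose effects differ between the fractions (edgeR adjusted p under 0.05), CRELD2 at −1.24 and DDIT3 at −2.59 on the log2 scale, and the dashed line marks equal effects.

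The genes with a printed element did not move as a block. Of the 7 with an ERSE, PDIA6 and CANX fell and ERO1LB rose after siPADI2 in poly(A) RNA, and 4 were not called. In the libraries labelled R1810A, 5 of the 7 were lower (HSP90B1, PDIA6, CALR, CANX and CRELD2), ERO1LB was higher and HSPA5 was not called. Of the 11 genes with any of the 3 elements, 4 fell and 2 rose after siPADI2 in poly(A) RNA, with a median log2 fold change of −0.03. Of the 21 with a window and none of them, 11 fell and 6 rose, with a median of −0.26. For R1810A the medians were nearly equal, at −0.28 and −0.27. In chromatin RNA 3 of the 11 fell and 2 rose, with a median of −0.39, and 7 of the 21 fell and 1 rose, with a median of −0.33. PDIA4, EDEM2, DNAJC3 and SEL1L, which had some of the deepest poly(A) falls, were all among the 21.

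Genes next to the 35 in the same pathways were counted from lists. XBP1, the factor spliced by IRE1, was lower in all 3 comparisons, at 975 and 970.5 poly(A) CPM against 1646 and 1824 after siPADI2 (log2 fold change −0.83, SE 0.0900, edgeR adjusted p = 2.55e-10), with log2 fold changes of −0.49 for R1810A and −0.85 in chromatin RNA. These counts do not separate spliced from unspliced XBP1 mRNA. ATF4, the factor translated under PERK signalling, was not called after siPADI2 in poly(A) RNA (−0.10) and was lower for R1810A (−0.33) and in chromatin RNA (−1.13). ATF3, a stress-induced factor, rose in the poly(A) comparisons (0.80 and 0.56) and was not called in chromatin RNA (−0.22). Of the 30 other stress regulators and targets, 10 rose and 10 fell after siPADI2 in poly(A) RNA, 6 were higher and 12 lower for R1810A, and 1 rose and 13 fell in chromatin RNA. The largest poly(A) changes after siPADI2 were in CREB3L1 (−1.998) and CREB3L2 (−1.50), membrane-bound relatives of ATF6, and in MAP3K5 (1.47), the kinase ASK1.

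Oligosaccharyltransferase, which adds N-glycans to entering chains, had 8 of 11 genes lower and none higher after siPADI2 in poly(A) RNA, led by TUSC3 (−1.40), MAGT1 (−0.78) and OSTC (−0.65). For R1810A 5 were lower and 1 higher. Translocon, signal recognition and signal peptidase genes had 11 of 22 lower and 2 higher after siPADI2, led by SRP9 (−0.91), SEC62 (−0.74) and SRP68 (−0.60), and 6 lower and 5 higher for R1810A. ER to Golgi transport had 11 of 23 lower and 6 higher, with LMAN1, the cargo receptor for glycoproteins, at −1.62, its partner MCFD2 at −1.16 and KDELR3, a retrieval receptor, at 1.04. For R1810A 8 of the 23 were lower and 5 higher.

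The other ER folding enzymes and ERAD genes on the lists had more rises than falls after siPADI2 in poly(A) RNA. Of 35 other folding enzymes tested, 14 rose and 9 fell after siPADI2, with a median of 0.12, led by QSOX1 (1.20), a sulfhydryl oxidase, and the prolyl isomerases FKBP14 (1.13) and FKBP7 (1.04). Of 28 other ERAD genes, 13 rose and 9 fell, with FAF2, which recruits the extraction ATPase, at −2.04, and ERLIN2 at 0.90. Cytosolic and mitochondrial chaperones split 6 higher and 7 lower of 28, with HSPB1 at −1.02, DNAJB6 at −0.94 and HSPD1 at 0.41. For R1810A, 8 of these 28 were higher and none lower. In chromatin RNA after siPADI2, 3 of 36 other folding enzymes rose and 8 fell, with QSOX1 lower (−0.72, edgeR adjusted p = 0.0039). Of the 28 other ERAD genes 5 fell and none rose there, and of the 28 cytosolic and mitochondrial chaperones 4 fell and none rose. Each list is a count beside the shares of all genes given above, and none was tested as a set.

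**Figure D5:**
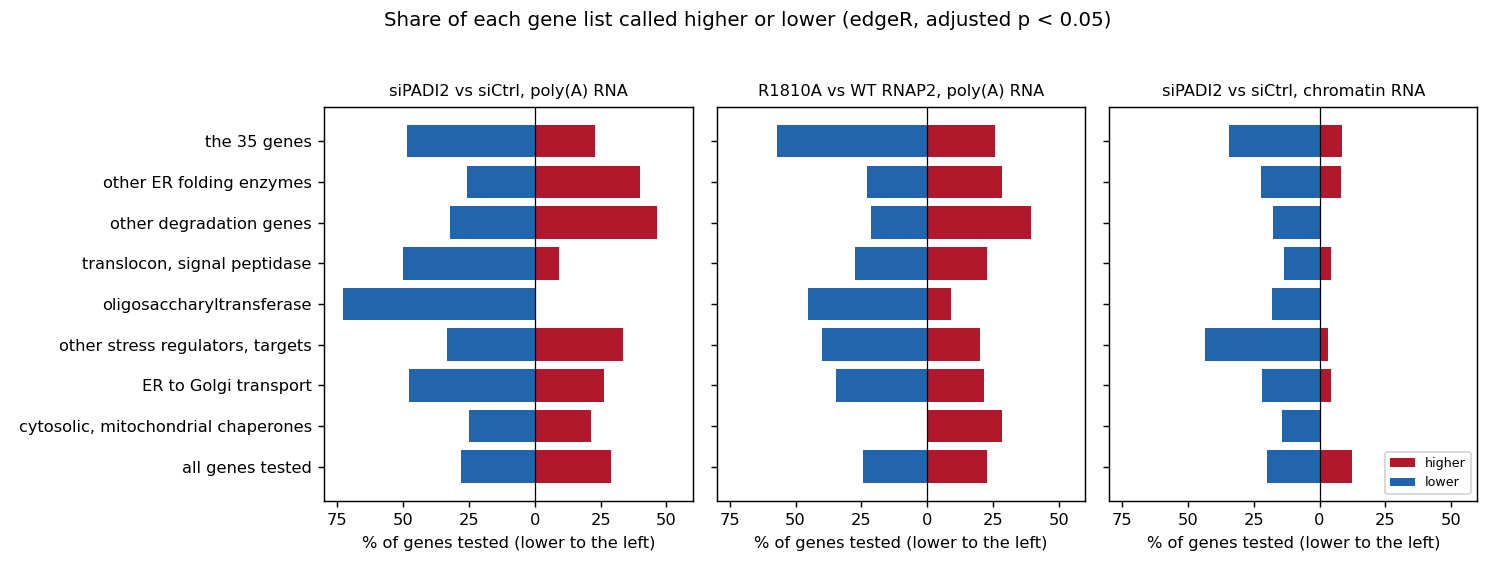
Percent of the genes tested in each list that were called lower (blue, to the left) or higher (red, to the right) in the 3 comparisons (edgeR adjusted p under 0.05), with all genes tested in the bottom row. The 35 genes lean to the left in each panel, and oligosaccharyltransferase has no red bar after siPADI2.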

How the data were processed

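The authors deposited raw counts, 1 value per gene and library, each a number of fragments. Per the submitters' processing notes the authors used Trimmomatic, STAR and featureCounts. Per the file headers, featureCounts 1.5.1 (poly(A)) and 1.4.6-p2 (chromatin) counted exons of GENCODE 19 genes on hg19 with strand option 2. Reads that lie wholly outside annotated exons therefore do not enter the chromatin values. Unspliced reads that overlap an exon can enter, so these values are not a measure of spliced RNA alone. No option counted multi-mapping reads or reads shared by genes. Per the labels' protocols the kits were TruSeq Stranded mRNA for poly(A) RNA and TruSeq Stranded Total RNA (Ribo-Zero) for chromatin RNA.

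Symbols were matched to GENCODE 29 (52338 of 57820 genes). The test was edgeR's quasi-likelihood F test (version 4.0.16, R 4.3.3, TMM, filterByExpr, robust), run per comparison on the 4 libraries concerned, with Benjamini-Hochberg adjustment over all genes tested and a threshold of 0.05. Differences between effects were interaction contrasts in fits of 8 libraries. The standard error is the log2 fold change divided by the square root of F. CPM are TMM-scaled. The script was tested on simulated data. The 2 libraries of a group never agreed within sampling noise (chi-square per degree of freedom 3.55 to 91.7). Separate cultures are not stated in the labels, and the p-values then measure no more than how far these libraries differ, which may be technical.

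The members, the lists and the rule for named genes were chosen with earlier results of these data known. By that rule, values in every library are given for the 6 called members with the largest changes in a comparison and for HSPA5, HSP90B1, PDIA4, DDIT3, ATF6, ERN1, EIF2AK3 and DNAJC12, and members called in both poly(A) comparisons are named. From each other list up to 3 genes with the largest called change after siPADI2 are named, with XBP1, ATF4, ATF3, PADI2 and POLR2A. Other members and CPM values were added where a sentence needed them. Alternatives were total counts as library sizes, DESeq2 1.42.0, no filter, GC correction, joint fits, each library left out and a replicate block. Protein sequence features were not analysed here.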

Additional observations from a re-analysis of the deposited data

Results flagged for a closer look

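The siPADI2 effect on DDIT3 differed between the fractions by a test of the difference itself, with a value (chromatin minus poly(A)) of −2.59, SE 0.429, edgeR adjusted p = 2.58e-07. Both siPADI2 libraries were higher than both siCtrl libraries in poly(A) RNA and lower in chromatin RNA. CRELD2 differed in the same way of testing (−1.24, SE 0.415, edgeR adjusted p = 0.0383), with no call in poly(A) RNA and a fall in chromatin RNA. With GC correction the CRELD2 difference was not called (−0.34, edgeR adjusted p = 0.731), whereas that of DDIT3 held in every alternative run. The chromatin values rest on 20 and 25 counts of DDIT3 and 31 and 25 counts of CRELD2 in the siPADI2 libraries, and the fractions differ in kit and depth, which cannot be told apart from the fraction itself.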

How the results depend on the processing

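Of the values of single genes in the 3 comparisons under the alternatives, 905 kept their side of the threshold, 88 lost the call and 22 gained it. No value called in the main or the alternative run changed direction. A change of sign in a value called in neither run was not counted. In the tests of a difference between effects 754 kept their side of the threshold, 31 lost the call and 88 gained it. By the same rule 1 reversed, SDF2L1 between the fractions with GC correction (−0.18 to 1.15). The calls of 10 of 17 lower and 7 of 8 higher genes after siPADI2 in poly(A) RNA held in every alternative, as did 16 of 20 and 7 of 9 for R1810A. In chromatin RNA only PDIA4, DERL3 and DDIT3 of the 12 lower and DNAJC12 of the 3 higher genes did. The chromatin libraries are shallow, and the part of depth in the lost calls was not tested. The causes of the changes below were not tested.

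Leaving out 1 library at a time gave 14 to 17 lower and 7 to 8 higher genes after siPADI2 in poly(A) RNA, 17 to 20 lower and 7 to 9 higher for R1810A, and 4 to 11 lower and 1 to 2 higher in chromatin RNA. It gave 5 to 10 more negative and 4 to 5 more positive genes for siPADI2 against R1810A, and 1 to 15 and 0 to 4 for chromatin against poly(A) RNA. The 4 lower genes in chromatin RNA came without siPADI2 replicate 2, and the 15 came without siCtrl poly(A) replicate 2, the library with 132764704 counts.

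With total counts as library sizes, 11 genes fell after siPADI2 in poly(A) RNA, siPADI2 against R1810A gave 5 more negative and 9 more positive genes, and chromatin against poly(A) RNA gave 7 and 3. DESeq2 gave 6 lower genes in chromatin RNA, and 5 more negative and 7 more positive for chromatin against poly(A) RNA. Without the filter, 1 gene rose in chromatin RNA and siPADI2 against R1810A gave 5 more negative genes. GC correction gave 13 falls and 1 rise in chromatin RNA, and 7 more negative and 4 more positive for chromatin against poly(A) RNA. Among the chromatin falls it lost P4HB, CALR, CRELD2, EDEM2 and OS9. It gained HSP90B1, PDIA6, CANX, DNAJC3, EDEM1 (−0.62, edgeR adjusted p = 0.0194) and ATF6. The joint fit gave 7 falls and 1 rise in chromatin RNA.

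The replicate numbers come only from the titles. With a replicate block, 18 genes fell and 8 rose after siPADI2 in poly(A) RNA and 22 were lower and 10 higher for R1810A, and siPADI2 against R1810A gave 10 more negative and 8 more positive genes. Within the 2 poly(A) comparisons the block called 3 genes that the same fit without it did not call. They were HSPA5 (−0.12, edgeR adjusted p = 0.00766) and DNAJB9 (−0.12, edgeR adjusted p = 0.0112) for R1810A, and SSR1 after siPADI2 (−0.17, edgeR adjusted p = 0.0345) and for R1810A (0.15, edgeR adjusted p = 0.000157). The block lost no call in either poly(A) comparison. The difference between replicates 2 and 1 was taken for each gene in each group and correlated over genes between the 2 groups. The r was 0.26 for siPADI2 (13356 genes) and 0.79 for R1810A (13645 genes), each from 2 pairs of libraries. No paired analysis was possible in chromatin RNA because its groups share only the number 1.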
